A study of Mus musculus with 6 samples.

Results

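Warm and cold isolation were compared in hepatic stellate cells of the non-tumour region, taken from mice on a high-fat diet, as HSC_NT_37 against HSC_NT_6. These are 2 of the 6 RNA sequencing libraries of the study and are defined by their labels, so that each temperature is represented by 1 library and no value of this pair has an error of its own. The mice behind all 6 libraries were wild type C57BL/6 animals of 35 weeks, whose livers were perfused at 37 or at 6 degrees. The other 2 pairs were HSC_ND_37 and HSC_ND_6 from mice on a normal diet and HSC_T_37 and HSC_T_6 from the tumour region, so both regions share the high-fat diet. Per the labels' protocols, cells without CD31 (an endothelial protein) or CD45.2 (a leukocyte protein) and with CD49a (an integrin subunit) were sorted, Trizol was used for RNA extraction, and the library protocol is given as standard Illumina. The labels do not say how many livers a library held, or whether the tumour and non-tumour regions came from the same mice. Per the study's design text, the question was which side effects incubation at high temperature has on the transcriptome.

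Stellate cells store vitamin A, wrap the hepatic sinusoid as its pericytes and become matrix-producing myofibroblasts after injury. Tissue digestion with warm enzymes is known to switch on fast transcriptional programmes in many cell types. Immediate early genes are transcribed within minutes of a stimulus by factors that are already present in the cell, and most of their products are transcription factors, phosphatases or proteins that destroy messenger RNA. Heat shock genes are switched on by the factor HSF1 when unfolded proteins accumulate, and encode chaperones.

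Expression is given as deposited, in FPKM, which count fragments relative to transcript length and library size. From the steps between low values, HSC_NT_37 held about 1.71e+07 fragments and HSC_NT_6 about 1.98e+07, against 1.67e+07 to 2.37e+07 over the 6 libraries, and a single fragment of a 1 kb transcript counted 0.0584 and 0.0506 FPKM in the 2 libraries. Of 24346 symbols, 9070 were listed at 0 in HSC_NT_37 and 8354 in HSC_NT_6. The comparison kept 11560 genes whose FPKM averaged 1 or more across the 6 libraries. The difference given for a pair is log2(FPKM + 1) at 37 degrees minus log2(FPKM + 1) at 6 degrees, and a gene with a difference under 1 in size is called flat. Adding 1 FPKM makes the differences of genes with low values smaller than their FPKM ratios. The labelled cell type was checked with 12 stellate cell markers, which summed to 37830.2 FPKM in HSC_NT_37 and 26454 FPKM in HSC_NT_6. Itga1, which encodes the sorted CD49a, was at 204 FPKM in HSC_NT_37 and 161 FPKM in HSC_NT_6. Pecam1, which encodes CD31, was at 9.99 FPKM in HSC_NT_37 and 90.6 FPKM in HSC_NT_6, and Ptprc, which encodes CD45, at 0.375 FPKM and 2.73 FPKM.

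Between the 2 libraries, far more genes were lower than higher after isolation at 37 degrees. Of the 11560 genes, 26 (0.225%) were at least 2-fold higher in HSC_NT_37 and 665 (5.75%) at least 2-fold lower. The inducible HSP70 genes Hspa1a and Hspa1b led the higher genes, and macrophage, antigen presentation and sinusoidal endothelial genes led the lower ones. The normal diet pair had 90 higher (0.779%) and 477 lower genes (4.13%) and the tumour pair 227 higher (1.96%) and 496 lower (4.29%). The median difference over all kept genes was 0.01 in the non-tumour pair. All 23 sinusoidal endothelial markers summed to 6851 FPKM in HSC_NT_37 and 10237 FPKM in HSC_NT_6. Much of both sums is Plvap, which was higher in HSC_NT_37, and without it they were 1217 FPKM and 5899.6 FPKM. Macrophage markers summed to 48.9 FPKM in HSC_NT_37 and 889 FPKM in HSC_NT_6. The part of these cell types in the other differences was not tested, and in bulk samples fewer cells of a type and less RNA per cell cannot be told apart. Just inside the threshold lay Prlr, 1700084E18Rik and Rplp2-ps1 with differences of 1.02, 1.04 and 1.04, and just outside it Fhl2, Gm4956 and Gadd45b with 0.99, 0.98 and 0.97. Among lower genes, Enc1 and Cdk1 lay just inside and Kng1, Rfk and Hpcal1 just outside, each with a difference of -1.0 after rounding.

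**Figure D1:**
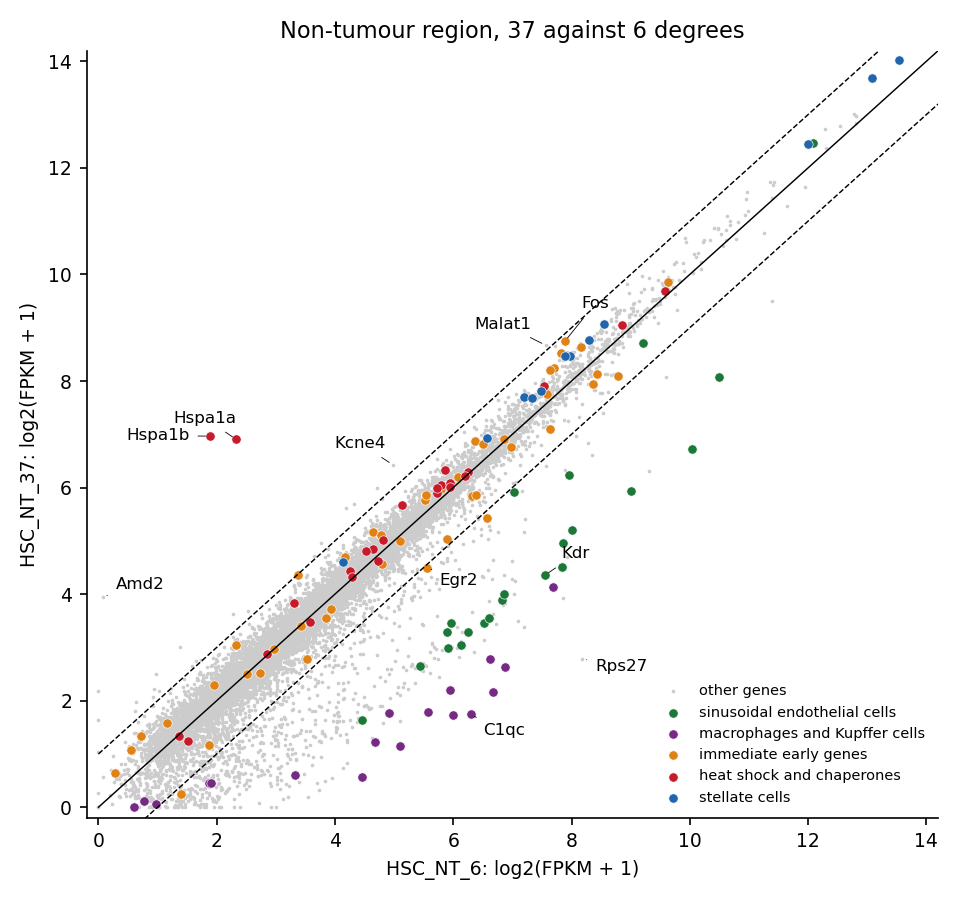
Level of each of 11560 genes in the non-tumour pair, log2(FPKM + 1) in HSC_NT_37 (y axis) against HSC_NT_6 (x axis), 1 point per gene and 1 library per axis, with the solid line at equality and dashed lines at 2-fold. Heat shock genes Hspa1a and Hspa1b lie far above the upper line. Of the immediate early genes, Dusp2, Plk2 and Egr2 lie below the lower line and the others between the dashed lines. Stellate cell markers lie between equality and the upper line, and most endothelial and macrophage markers lie below the lower line.

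Hspa1b and Hspa1a, neighbouring genes for near-identical stress-inducible HSP70 chaperones, had the 2 largest positive differences of the pair. Hspa1b (GRCm38 chromosome 17, 34956429 to 34959238) was at 124 FPKM in HSC_NT_37 against 2.68 FPKM in HSC_NT_6, a ratio of 46.4. Hspa1a (chromosome 17, 34969359 to 34972156) was at 119 FPKM in HSC_NT_37 against 4.01 FPKM in HSC_NT_6, a ratio of 29.6. How fragments were divided between these copies is uncertain, so their sum is the firmer value, and it was 243 FPKM in HSC_NT_37 and 6.7 FPKM in HSC_NT_6, a difference of 4.99. The summed difference was 5.66 in the normal diet pair (334 and 5.61 FPKM) and 2.79 in the tumour pair (85.6 and 11.6 FPKM), so these genes were higher at 37 degrees in each of the 3 pairs. The promoter of Hspa1a is printed because it shows the letters of the heat shock response at this pair of genes. Below are the 250 bases before the RefSeq start of Hspa1a (GRCm38.p6), 5′ to 3′ on the gene's strand, with capitals marking GAAGATTC, a match to GAANNTTC (the inverted repeat at the core of the heat shock element) at 104 to 97 bases before the start.
Hspa1a, chr17:34972157-34972406, minus strand: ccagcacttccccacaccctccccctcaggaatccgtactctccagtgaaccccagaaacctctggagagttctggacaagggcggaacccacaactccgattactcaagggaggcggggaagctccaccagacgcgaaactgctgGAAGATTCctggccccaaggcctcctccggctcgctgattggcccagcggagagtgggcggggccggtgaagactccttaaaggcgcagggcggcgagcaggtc
The Hspa1b promoter was identical to it at 296 of 300 positions (250 bases before the start and 50 after it) and held the same match at the same place. GAANNTTC, which reads the same on both strands, was found in 10 of the 20 heat shock list promoters present in the RefSeq table (50%). It was found in 7.86% of all 32851 promoters of that length, which belong to 27025 genes. Apart from Hspa1a and Hspa1b, the genes of these 10 promoters were flat in the non-tumour pair. A match is a description of the letters and not evidence of binding.

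The other chaperone genes were flat in the non-tumour pair. Of 25 kept genes of the heat shock list, 2 were at least 2-fold higher and 0 lower, 21 had a difference above 0, and the list median was 0.18 here against 0.27 in the normal diet and 0.22 in the tumour pair. Dnajb1, an HSP40 co-chaperone that heat shock induces strongly, was at 23.5 FPKM in HSC_NT_37 and 25.5 FPKM in HSC_NT_6. Its values were 39.6 and 20.7 FPKM in the normal diet pair and 130.5 and 23.5 FPKM in the tumour pair. Bag3, a co-chaperone of HSP70, had differences of 0.04 in the non-tumour, 0.19 in the normal diet and 1.28 in the tumour pair. Dnaja1, another HSP40, had 0.24, 0.16 and 1.22 in the same order, and Dnajb4 had 0.54, 1.17 and 1.59. The largest values among the flat chaperones were 0.54 for Hsph1, an HSP110, and Dnajb4, followed by 0.46 for Hsp90aa1, the inducible HSP90. At least 2-fold higher were thus the HSP70 genes alone in the non-tumour pair, against 7 list genes in the tumour and 3 in the normal diet pair, and whether the pairs differ in this was not tested for the list.

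Amd2 had the third largest positive difference and was the 1 gene higher here but at least 2-fold lower in both other pairs. It belongs to the genes for S-adenosylmethionine decarboxylase, an enzyme of polyamine synthesis. Amd2 was at 14.4 FPKM in HSC_NT_37 against 0.0543 FPKM in HSC_NT_6, at 0.167 against 11.4 FPKM in the normal diet pair and at 0.763 against 27.7 FPKM in the tumour pair. In each pair 1 library was thus near 0, but not at the same temperature. Amd2 is a near copy of Amd1, and the 2 genes summed to 54.8 FPKM in HSC_NT_37 and 39.6 FPKM in HSC_NT_6, with a summed difference of 0.46 here, 0.03 in the normal diet and 0.46 in the tumour pair. The value of Amd2 alone is therefore uncertain.

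Of the 26 genes, 10 had under 5 FPKM in their higher library and 3 (Hist4h4, Cox7a1 and Rplp2-ps1) were listed at 0 in HSC_NT_6. At these levels 1 library gives no way to separate a difference from sampling, and Hist4h4 and Hist2h2ac are replication-dependent histone genes whose messages lack a poly(A) tail. Kcne4, a subunit of potassium channels, was among the well-covered ones, at 85.2 FPKM in HSC_NT_37 and 30.5 FPKM in HSC_NT_6. It was at 37.8 and 11.2 FPKM in the normal diet pair and at 94.4 and 35 FPKM in the tumour pair, so the higher library was the one of 37 degrees in each of the 3 pairs. In the other 2 pairs Kcne4 rose (limma, adjusted p = 0.0478, passing in 1 of 8 alternatives), and the pairs had a difference of -0.08 ± 0.21 (SE) between them. Malat1, a nuclear long non-coding RNA, was at 407 FPKM in HSC_NT_37 and 188 FPKM in HSC_NT_6, a difference of 1.11, against 1.45 in the normal diet and 0.71 in the tumour pair.

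Several of the remaining genes were higher in the non-tumour and the tumour pair and not in the normal diet pair. Tmem100, which encodes a membrane protein that BMP signalling induces in endothelium, was at 50.8 FPKM in HSC_NT_37 and 18.9 FPKM in HSC_NT_6, at 45.6 and 73.4 FPKM in the normal diet pair and at 71 and 16.4 FPKM in the tumour pair. Mgp, matrix Gla protein, an inhibitor of calcification, was at 11.3 FPKM in HSC_NT_37 and 3.84 FPKM in HSC_NT_6, with differences of 1.35 here, -0.64 in the normal diet and 2.25 in the tumour pair. Zbtb16, a glucocorticoid-inducible transcription factor, had 1.52, -0.32 and 1.87 in the same order, and Mfap4, a microfibril protein also used here as a portal fibroblast marker, had 1.64, 0.38 and 1.89. Snhg9, a small nucleolar RNA host gene, had 1.42, -0.70 and 1.12. Of the 26 genes, 11 were at least 2-fold higher in the tumour pair and 4 in the normal diet pair, of which 3 (Hspa1a, Hspa1b and Kcne4) were higher in both. The median difference of the 26 was 1.29 in the non-tumour pair, where it chose them, 0.06 in the normal diet and 0.69 in the tumour pair.

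Immediate early genes were flat in the non-tumour pair although most were higher at 37 degrees in the other 2 pairs. Of 49 list genes 46 were kept. At least 2-fold higher were 0 of these in the non-tumour pair, 30 in the normal diet pair and 37 in the tumour pair, and the list medians were 0.13, 1.60 and 2.16. The count of 0 depends on the pseudocount. With 0.1 FPKM, Fosl1 (1.12), Ptgs2 (1.10), Nr4a3 (1.07) and Gadd45b (1.04) were at least 2-fold higher here and Arc (-1.03) lower. Fosl1, Ptgs2 and Nr4a3 were at 1.53 FPKM or less in HSC_NT_37. The differences of the non-tumour pair ran from -1.15 to 0.97, with 26 genes above 0 and 20 below. A total of 26 genes were flat here and at least 2-fold higher in both other pairs: Fos, Fosb, Fosl2, Jun, Junb, Jund, Atf3, Egr1, Nr4a1, Arc, Dusp1, Zfp36, Btg2, Ier2, Ier3, Klf2, Klf4, Klf6, Myc, Socs3, Nfkbiz, Csrnp1, Cebpb, Cebpd, Gadd45b and Gadd45g. Over all 11560 genes, 54 (0.467%) had this pattern. In the non-tumour pair these 26 had a median difference of 0.32, with 18 above 0 and 8 below. Their medians were 2.18 in the normal diet and 3.22 in the tumour pair, where the rule that chose them required at least 1.

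**Figure D2:**
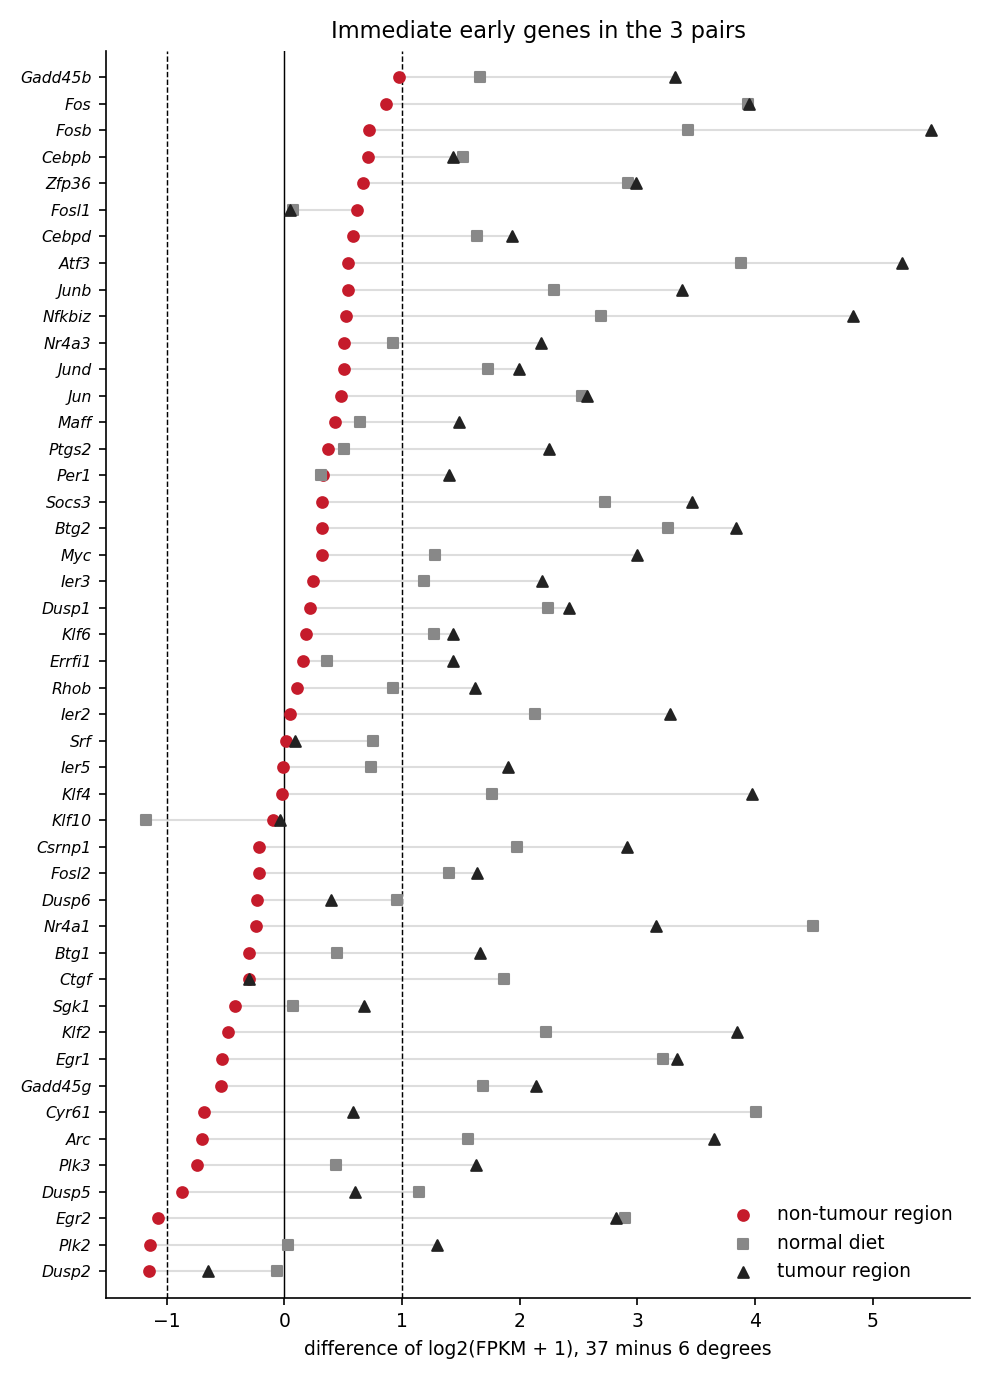
Difference of log2(FPKM + 1) between 37 and 6 degrees (x axis) for the 46 immediate early genes kept (y axis), 1 marker per pair of libraries, with dashed lines at 2-fold. The non-tumour markers lie between -1.15 and 0.97, and the tumour markers reach 5.49.

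Among AP-1 subunits, which pair up to bind DNA, Fos (chromosome 12, 85473890 to 85477274) was at 429 FPKM in HSC_NT_37 and 236 FPKM in HSC_NT_6. In the normal diet pair Fos was at 1548 and 99.7 FPKM and in the tumour pair at 4114 and 265 FPKM. Its warm non-tumour value thus lay above each of the 3 cold values and below both other warm ones. Fosb was at 7.28 FPKM in HSC_NT_37 and 4.03 FPKM in HSC_NT_6, against 50.4 and 3.77 FPKM in the normal diet and 248 and 4.53 FPKM in the tumour pair. Jun was at 399 FPKM in HSC_NT_37 and 285 FPKM in HSC_NT_6, while its differences were 2.53 and 2.57 in the other 2 pairs. Junb and Jund, its relatives, had 0.54 and 0.51 in the non-tumour pair. Atf3, a stress-induced partner of these factors, was at 35.1 FPKM in HSC_NT_37 and 23.9 FPKM in HSC_NT_6, against 179 and 11.2 FPKM in the normal diet and 1285 and 32.8 FPKM in the tumour pair. The AP-1 genes hence had small positive differences here, apart from Fosl2 with -0.22.

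Most zinc finger and nuclear receptor factors had differences below 0. Egr1, a growth factor-responsive zinc finger regulator (chromosome 18, 34861207 to 34864956), was at 136 FPKM in HSC_NT_37 and 197 FPKM in HSC_NT_6, against 561 and 59.2 FPKM in the normal diet and 2078 and 205 FPKM in the tumour pair. In the non-tumour pair the cold library was thus the higher of the 2. Nr4a1, an orphan nuclear receptor, was at 22.7 FPKM in HSC_NT_37 and 26.9 FPKM in HSC_NT_6, and its differences were 4.49 in the normal diet and 3.16 in the tumour pair. Klf2 and Klf4, Krüppel-like factors, had -0.48 and -0.02 (0.08 under quantile normalization) in the non-tumour pair against 3.85 and 3.97 in the tumour pair. Klf6, which was also cloned from activated rat stellate cells, was at 61.9 FPKM in HSC_NT_37 and 54.3 FPKM in HSC_NT_6. Arc, Gadd45g and Csrnp1 had -0.70, -0.54 and -0.22.

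Feedback genes were flat as well. Dusp1, a phosphatase that switches off MAP kinases, was the most abundant of the 26 genes in HSC_NT_37 at 922 FPKM, with 792 FPKM in HSC_NT_6, 1318 and 279 FPKM in the normal diet pair and 3879.6 and 726 FPKM in the tumour pair. Its 2 non-tumour libraries thus lay close together between the extremes of the other pairs. Zfp36, which directs AU-rich messenger RNA to decay, was at 362 FPKM in HSC_NT_37 and 228 FPKM in HSC_NT_6, against differences of 2.92 and 2.99 in the other pairs. Btg2, an antiproliferative factor that promotes deadenylation, was at 56.8 FPKM in HSC_NT_37 and 45.4 FPKM in HSC_NT_6, against 221 and 22.1 FPKM in the normal diet and 639 and 43.7 FPKM in the tumour pair. Socs3, an inhibitor of cytokine receptors, and Ier2 had 0.32 and 0.05 here. Cebpb and Cebpd, transcription factors of the acute phase response, had 0.71 and 0.58 in the non-tumour pair, against 1.43 to 1.93 in the other pairs. Gadd45b, a stress-induced growth arrest gene, had the largest difference of the 26 with 0.97 and passes the 2-fold threshold under a pseudocount of 0.1 FPKM (1.04) and quantile normalization (1.01).

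Promoters of 3 of these genes are shown because they hold short motifs of the factors that act on immediate early genes. Each line gives the 250 bases before the RefSeq start (GRCm38.p6), 5′ to 3′ on the gene's strand, with the motif in capitals, which is the CArG box (the binding motif of serum response factor) in Zfp36 and TGACGTCA (the cAMP response element) in Btg2 and Dusp1.
Zfp36, chr7:28379229-28379478, minus strand: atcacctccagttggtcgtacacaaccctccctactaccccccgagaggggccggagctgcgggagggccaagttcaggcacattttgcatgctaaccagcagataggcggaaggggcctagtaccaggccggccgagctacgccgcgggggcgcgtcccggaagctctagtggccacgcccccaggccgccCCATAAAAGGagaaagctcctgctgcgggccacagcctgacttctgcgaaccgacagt
Btg2, chr1:134079156-134079405, minus strand: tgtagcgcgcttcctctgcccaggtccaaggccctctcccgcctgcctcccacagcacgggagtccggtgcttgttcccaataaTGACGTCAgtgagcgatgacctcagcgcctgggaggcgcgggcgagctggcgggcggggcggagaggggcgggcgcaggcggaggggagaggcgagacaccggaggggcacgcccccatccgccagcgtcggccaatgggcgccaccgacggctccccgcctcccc
Dusp1, chr17:26508473-26508722, minus strand: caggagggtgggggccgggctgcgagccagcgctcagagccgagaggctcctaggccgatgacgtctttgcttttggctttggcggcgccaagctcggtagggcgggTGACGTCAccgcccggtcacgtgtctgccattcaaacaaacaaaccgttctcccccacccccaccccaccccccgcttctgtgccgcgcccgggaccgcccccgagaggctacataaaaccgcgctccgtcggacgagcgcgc
Of the 26 genes, 20 had a promoter in the RefSeq table. On either strand, the CArG box was found in 1 of these (5.0%) against 1.63% of all 32851 promoters, and TGACGTCA in 2 (10%) against 1.79%. The other kept immediate early genes had 17 promoters, with the CArG box in 2 (11.8%) and TGACGTCA in 1 (5.88%), so these motifs are not particular to the 26. TGANTCA, the AP-1 motif, was found in 0 of the 20 and in 7.81% of all, and GAANNTTC in 2 (Fosl2 and Jun). The window ends 50 bases after the start, and no match says only that these letters are not in it.

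The levels of the 26 genes in the single libraries are given as a description, since choosing genes that were flat here and higher in both other pairs favours low values in HSC_NT_37 and high ones in HSC_NT_6. Their median was 56.8 FPKM in HSC_NT_37 and 66.7 FPKM in HSC_NT_6, against 189 and 37.8 FPKM in the normal diet pair and 503 and 52.5 FPKM in the tumour pair. HSC_NT_37 was below HSC_T_37 for 26 of the 26 genes (median log2 difference -2.71) and below HSC_ND_37 for 24 (median -1.28). HSC_NT_6 was above HSC_ND_6 for 24 genes (median 0.94) and above HSC_T_6 for 16 (median 0.07). Over the whole list of 46 kept genes, HSC_NT_37 was below HSC_ND_37 for 37 genes (median -0.57) and below HSC_T_37 for 44 (median -2.13). HSC_NT_6 was above HSC_ND_6 for 42 of the 46 (median 0.90) and above HSC_T_6 for 26 (median 0.06). In both sets the cold non-tumour library had a median near that of the cold tumour library and above that of the cold normal diet library. For the 26 genes, HSC_NT_37 itself was above HSC_ND_6 for 25 genes and above HSC_T_6 for 21, with medians of 1.13 and 0.35. The lowest of the 6 values was in HSC_ND_6 for 22 genes, and the highest in HSC_T_37 for 26. Over all kept genes the medians of these library differences lay between 0.02 and 0.04.

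**Figure D3:**
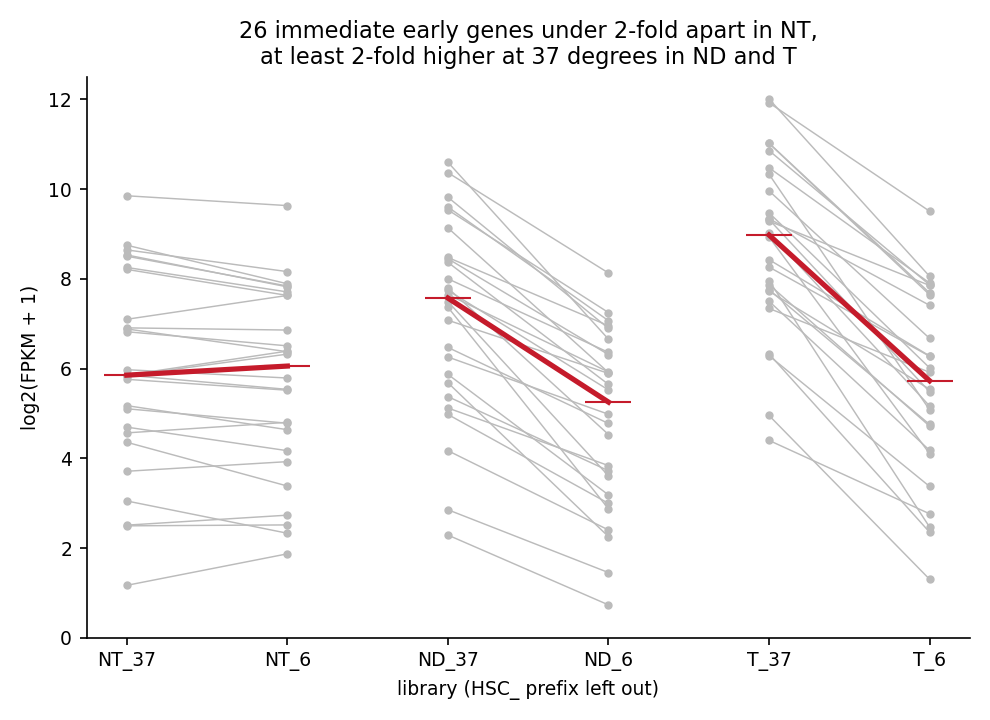
Level in each library, log2(FPKM + 1), of the 26 immediate early genes that are flat in the non-tumour pair and at least 2-fold higher at 37 degrees in both other pairs (grey, 1 line per gene and pair; red, median). The lines of the non-tumour pair have differences from -0.70 to 0.97, with 18 above 0 and 8 below. The library medians of that pair are 56.8 and 66.7 FPKM. The lines of the normal diet (189 and 37.8 FPKM) and tumour pairs (503 and 52.5 FPKM) slope down towards 6 degrees.

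Whether the temperature effect of the non-tumour pair differs from that of the other 2 pairs was tested with limma over the 6 libraries, with 1 residual degree of freedom. On simulated data this test recovered 0 of 200 genes whose effect differed by 2 on the log2 scale, and 160 of 200 that differed by 4. A gene that does not pass can therefore still differ between the pairs. Over 11560 genes, 0 (0.0%) passed at an adjusted p under 0.05, and 270 (2.34%) had an unadjusted p under 0.05. The smallest adjusted p was 0.0545 and was shared by Amd2, Egr1, Egr2 and Fos. For Fos the non-tumour effect was lower by 3.09 ± 0.15 on the log2 scale (SE; a difference of -3.09), and for Egr1 the difference was -3.81 ± 0.16. For the 26 flat genes this difference had a median of -2.56 and a range from -4.06 to -0.77. Since these genes were chosen by the values that the contrast compares, neither their sign, their size nor their p-values are support for a difference. Egr1 and Fos passed under median-ratio rescaling, and Egr1 also with a pseudocount of 0.1 FPKM (adjusted p = 0.047). The smallest adjusted p among the 26 was 0.0349 under the rescaling, and that smallest value ran up to 0.979 over the alternatives.

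In the other 2 pairs taken by themselves, limma (4 libraries, source as a term, 1 residual degree of freedom) called 32 genes higher (0.277%) and 50 lower (0.433%) at an adjusted p under 0.05. Of the 26 flat immediate early genes, 15 rose there, a contrast that also chose them. Fos had the smallest adjusted p, 0.00614, with an effect of 3.95 ± 0.09 (SE), followed by Egr1 and Zfp36 with 0.00768 and Jun with 0.0103. Each of these 4 passed in 5 of 8 alternatives, and over the alternatives 0 to 19 of the 26 passed. The residual spread of these tests is a single difference between the 2 pairs per gene, so a small p reflects that the normal diet and tumour pairs had nearly equal differences.

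Egr2, an early growth response factor related to Egr1, went in the opposite direction here. Egr2 (chromosome 10, 67534469 to 67542188) was at 21.5 FPKM in HSC_NT_37 and 46.2 FPKM in HSC_NT_6, at 38 and 4.24 FPKM in the normal diet pair and at 286 and 39.8 FPKM in the tumour pair. The cold non-tumour value was the highest of the 3 cold values and the warm one the lowest of the 3 warm values. Its difference of -1.07 lies close to the threshold, against 2.89 and 2.82 in the other pairs, where it rose (limma, adjusted p = 0.0121, passing in 5 of 8 alternatives). The difference between pairs was -3.92 ± 0.19 (limma, adjusted p = 0.0545, and 0.0349 to 0.979 over the alternatives). Since Egr2 was singled out by the values that this contrast compares, neither its size nor its p-values are support for a difference. The other 2 list genes at least 2-fold lower here were Plk2, a polo-like kinase, and the phosphatase gene Dusp2. Plk2 was at 41.9 FPKM in HSC_NT_37 and 93.8 FPKM in HSC_NT_6, and Dusp2 at 0.189 FPKM and 1.64 FPKM. Plk2 had differences of 0.03 in the normal diet and 1.30 in the tumour pair, and Dusp2 of -0.06 and -0.65.

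The other 17 flat list genes did not move in both other pairs. Dusp5, Cyr61 and Ctgf were at least 2-fold higher in the normal diet pair alone. Cyr61 and Ctgf, matricellular targets of the YAP pathway, had -0.68 and -0.30 in the non-tumour pair, and in HSC_NT_6 they stood at 439.7 and 345 FPKM against 27.3 and 55.6 FPKM in HSC_ND_6. Plk3, Btg1, Ier5, Rhob, Errfi1, Per1, Ptgs2, Maff and Nr4a3 were higher in the tumour pair alone. Ptgs2, the inducible cyclooxygenase, was at 0.568 FPKM in HSC_NT_37 and 0.211 FPKM in HSC_NT_6, against 7.19 and 0.725 FPKM in the tumour pair. Sgk1, Dusp6, Srf, Fosl1 and Klf10 were at least 2-fold higher in neither, and Klf10 was 2-fold lower in the normal diet pair. Egr3, Egr4 and Nr4a2 were under the expression filter, and Egr4 was listed at 0 in both non-tumour libraries.

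Beyond the list, 28 further genes were flat here and at least 2-fold higher in both other pairs. Taken from the other side, 58 of the 11560 genes (0.502%) were at least 2-fold higher in both other pairs, and in the non-tumour pair 54 of these were flat, 3 were higher (Hspa1a, Hspa1b and Kcne4) and 1 was lower (Egr2). Of the 54, 43 had a difference above 0 here, and that each lay below its value in both other pairs follows from how they were chosen. The following genes of this set were named after their values were seen or as members of other lists. Cxcl1, a neutrophil chemoattractant, was at 113 FPKM in HSC_NT_37 and 79.3 FPKM in HSC_NT_6, against 137 and 21.7 FPKM in the normal diet and 1288 and 88.7 FPKM in the tumour pair. Ppp1r15a (GADD34), which reverses the block on translation in the stress response, was at 136 FPKM in HSC_NT_37 and 82.9 FPKM in HSC_NT_6, against 249.8 and 61.5 FPKM and 853 and 69.1 FPKM. Bhlhe40, a clock-linked repressor, had the largest difference of the 28 here with 0.80, against 2.31 in the normal diet and 2.52 in the tumour pair. The zinc-binding metallothioneins Mt1 and Mt2 had 0.37 and 0.46 here, 1.26 and 1.37 in the normal diet and 1.84 and 1.90 in the tumour pair. Hes1, a Notch target, had 0.78, 1.22 and 1.19 in the same order.

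**Figure D4:**
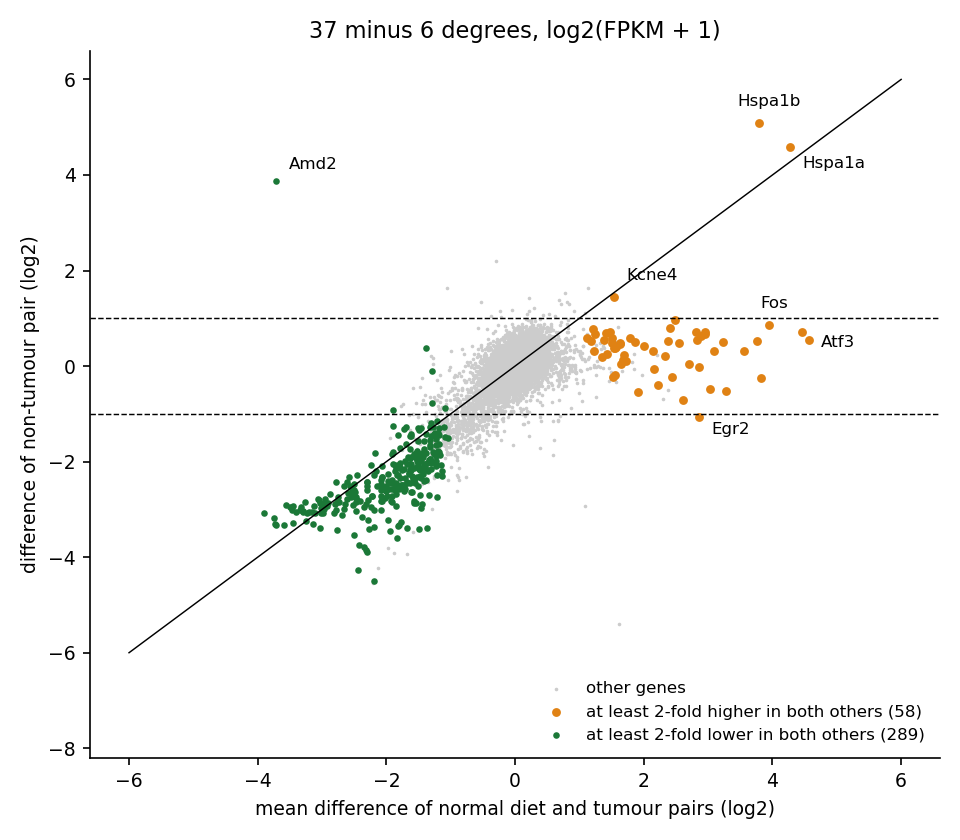
Difference of log2(FPKM + 1) between 37 and 6 degrees in the non-tumour pair (y axis) against the mean difference of the normal diet and tumour pairs (x axis), 1 point per gene, with the solid line at equality and dashed lines at 2-fold. Of the 58 genes higher in both other pairs (orange), 54 lie between the dashed lines, whereas of the 289 genes lower in both (green), 283 lie below the lower one.

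Most of the genes lower in the non-tumour pair had the same sign in the other pairs. Of 289 genes (2.5%) at least 2-fold lower in both other pairs, 283 were also lower in the non-tumour pair, 5 were flat and Amd2 was higher. Of the 665 genes lower here, 395 were at least 2-fold lower in the normal diet pair, 399 in the tumour pair and 283 (42.6%) in both, and 610 had the same sign in all 3 pairs. Their median difference was -1.67 in the non-tumour pair, where it chose them, -1.26 in the normal diet and -1.15 in the tumour pair. Across the 11560 genes, the differences of the non-tumour pair had a Pearson r of 0.70 with the normal diet and 0.62 with the tumour pair. By rank the order was reversed, with a Spearman rho of 0.43 and 0.50. These are descriptions over genes, which share their libraries and cell mixtures and are not independent replicates. Of the 665, 220 had under 5 FPKM in their higher library and 20 were listed at 0 in HSC_NT_37.

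Macrophage genes were mostly lower in HSC_NT_37. Of 18 kept markers of macrophages and Kupffer cells, the resident macrophages of the liver, 15 were at least 2-fold lower and 0 higher. C1qc, a chain of complement C1q that macrophages secrete, was at 2.34 FPKM in HSC_NT_37 and 77.4 FPKM in HSC_NT_6, a difference of -4.55. Tyrobp, a signalling adaptor of myeloid receptors, was at 3.48 and 100.5 FPKM in these libraries, and the Kupffer cell lectin Clec4f at 2.46 and 46.6 FPKM. Csf1r, the receptor of the macrophage growth factor, was at 0.479 FPKM in HSC_NT_37 and 20.9 FPKM in HSC_NT_6. For the 15 genes the ratio of HSC_NT_6 to HSC_NT_37 ran from 7.28 to 43.7 with a median of 18.3, and of the 20 listed markers Timd4 and Marco were at 0 in HSC_NT_37. Their summed level was 48.9 FPKM in HSC_NT_37 against 889 FPKM in HSC_NT_6, 63.7 and 683 FPKM in the normal diet pair and 1256 and 3248 FPKM in the tumour pair. The list median of -3.64 compares with -2.84 in the normal diet and -1.47 in the tumour pair. The difference between pairs passed for 0 of these 18 genes (limma), with 4 at an unadjusted p under 0.05, against 2.34% of all kept genes.

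MHC class II genes, which present antigen on macrophages, dendritic cells and B cells, were lower together with the macrophage markers. Of 7 kept genes, 7 were at least 2-fold lower. Cd74, the invariant chain, was at 14.3 FPKM in HSC_NT_37 and 229.5 FPKM in HSC_NT_6, and H2-Ab1 at 10.3 and 135 FPKM. The cytokine genes Il1a and Il1b were the 2 of 24 NF-kB list genes at least 2-fold lower, Il1a with 9.39 FPKM in HSC_NT_37 and 65.6 FPKM in HSC_NT_6 and Il1b with 0.143 and 2.03 FPKM. Il1b had a difference of -1.41 here and -1.95 in the normal diet pair, but 1.08 in the tumour pair. Il6 was at 0.487 FPKM in HSC_NT_37 and 0.0528 FPKM in HSC_NT_6, the level of about 1 fragment on a transcript of 1 kb. The median of the NF-kB list was 0.03 here, with 0 genes at least 2-fold higher, against 0.56 and 9 genes in the tumour pair. Over all kept genes, 5.75% were at least 2-fold lower and 0.225% higher in the non-tumour pair, and 1.96% were higher in the tumour pair. The non-tumour counts of 2 and 0 of 24 thus do not set this list apart.

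Sinusoidal endothelial genes formed the other large group of lower genes. Of 23 markers 21 were at least 2-fold lower, and Plvap and Eng were flat. Gpihbp1, which anchors lipoprotein lipase on capillaries, was at 105 FPKM in HSC_NT_37 and 1045 FPKM in HSC_NT_6, and Kdr, the VEGF receptor 2, at 19.5 and 187 FPKM. The ratio of HSC_NT_6 to HSC_NT_37 over the 21 genes ran from 2.16 to 10.5 with a median of 8.54. Plvap, a component of endothelial diaphragms, was at 5634 FPKM in HSC_NT_37 and 4338 FPKM in HSC_NT_6, unlike the other markers of its list in level and in direction. The list median was -2.91 here, -3.93 in the normal diet and -2.14 in the tumour pair. Gpr182, an endothelial chemokine-scavenging receptor, was at 36 FPKM in HSC_NT_37 and 258 FPKM in HSC_NT_6 and also fell in the other 2 pairs (limma, adjusted p = 0.0146, passing in 5 of 8 alternatives). Of the 50 genes that fell in the other 2 pairs, 47 were at least 2-fold lower here.

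Many proliferation genes were lower after warm isolation in both regions of high-fat livers. Of 27 kept genes, 12 were at least 2-fold lower and 0 higher in the non-tumour pair, against 0 lower in the normal diet and 15 lower in the tumour pair, with medians of -0.87, -0.30 and -1.10. Birc5 (survivin) was at 1.71 FPKM in HSC_NT_37 and 6.85 FPKM in HSC_NT_6, at 23.9 and 40.7 FPKM in the normal diet pair and at 3.16 and 12.8 FPKM in the tumour pair. Cdc20, which drives exit from mitosis, had 1.93 FPKM in HSC_NT_37 and 7.28 FPKM in HSC_NT_6. The values of both genes were thus highest in the normal diet libraries at either temperature. The difference between pairs was past an unadjusted p of 0.05 for 0 of the 27 (limma), against 2.34% of all kept genes. At that share a count of 0 does not set a list of this length apart. Which cells of the sorted fraction express these genes was not tested.

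Hepatocyte transcripts were lower in part. Of 18 kept hepatocyte markers 6 were at least 2-fold lower, with a median of -0.85 here, -2.26 in the normal diet and 0.35 in the tumour pair. Apoa1, an apolipoprotein, was at 5.43 FPKM in HSC_NT_37 and 18.5 FPKM in HSC_NT_6, and Apoa2 at 17.6 and 51.1 FPKM. Their sum over the list was 221 FPKM in HSC_NT_37 and 269.5 FPKM in HSC_NT_6. Rps27, a ribosomal protein gene, had the lowest difference of all, with 5.89 FPKM in HSC_NT_37 and 290.1 FPKM in HSC_NT_6. Rps27 shares its sequence with Rps27rt, and the 2 genes summed to 1575 FPKM in HSC_NT_37 and 1482 FPKM in HSC_NT_6, a difference of 0.09, so the value of Rps27 alone is uncertain.

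Stellate cell genes were slightly higher in the warm library and flat by the 2-fold rule. Of 28 kept genes of quiescent stellate cells, 27 had a difference above 0 and 0 were at least 2-fold apart, with a median of 0.47 against 0.01 over all genes, where 6023 (52.1%) were above 0. Ecm1, an extracellular matrix protein, was at 13214 FPKM in HSC_NT_37 and 8695 FPKM in HSC_NT_6, and Lrat, which esterifies vitamin A for storage, at 538 and 373 FPKM. The 12 stellate cell markers ran from 0.34 to 0.60. Of 27 myofibroblast genes 23 were above 0, with a median of 0.37 here, 0.15 in the normal diet and 0.05 in the tumour pair, and 0 were at least 2-fold apart. Postn (periostin), a matricellular protein of activated fibroblasts, was at 657 FPKM in HSC_NT_37 and 423 FPKM in HSC_NT_6. Endothelial and macrophage markers were lower in the same library, with the sums given above, and their part in these small differences was not tested.

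**Figure D5:**
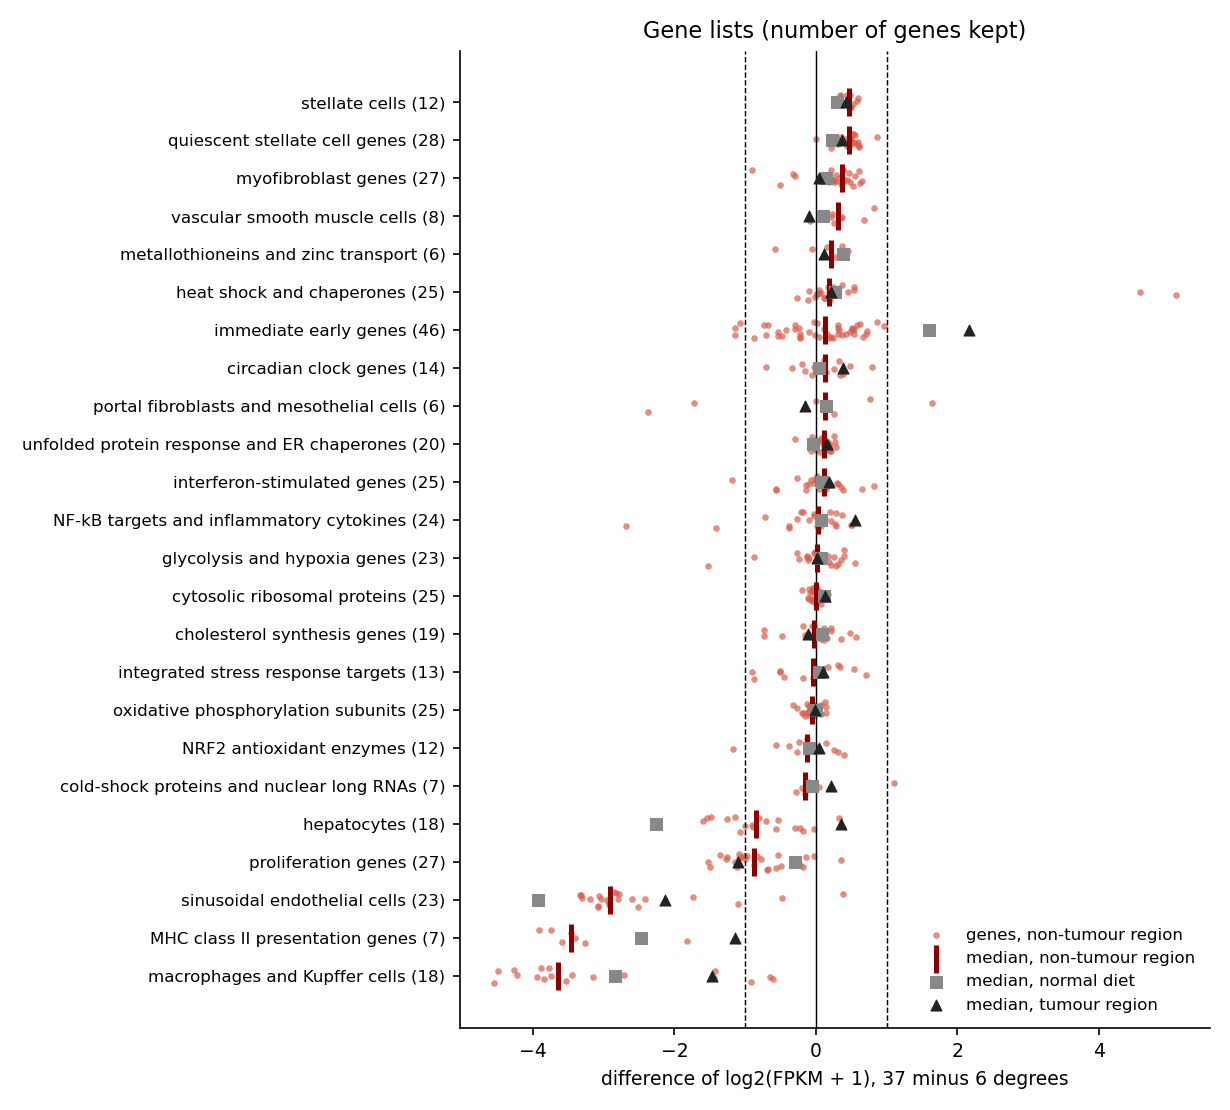
Difference of log2(FPKM + 1) between 37 and 6 degrees for the kept genes of each list with at least 6 (points, non-tumour pair), with the list medians of the non-tumour (dark red bar), normal diet (grey square) and tumour pairs (black triangle) and dashed lines at 2-fold. The immediate early list stands out by a non-tumour median of 0.13 beside 1.60 and 2.16, while the endothelial, macrophage and MHC class II medians lie below -1 in each pair.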

How the data were processed

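RNA was measured in 6 libraries, 1 per group. The submitters' processing notes name mm10 as the build and TopHat2 2.1.1, Bowtie2 and Cuffdiff 2.2.1 as tools, and the authors deposited FPKM values per gene symbol. Annotation, strand use and scaling were not given in the sources used here. Whether reads of overlapping genes on opposite strands were told apart is therefore not known, and near-identical copies can have their reads divided by Cuffdiff.

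Entries that shared a symbol were summed, 1310 small RNA symbols were left out and low genes were filtered, which kept 11560 genes whose FPKM averaged 1 or more across the 6 libraries. Pairs were compared as the difference of log2(FPKM + 1) with a threshold of 1 (2-fold), with no test, as each group has 1 library. P-values come from limma 3.58.1 (R 4.3.3; intensity trend; Benjamini-Hochberg over all kept genes), for the temperature effect in the other 2 pairs (4 libraries, source as a term) and for the non-tumour effect minus that of the other 2 pairs (6 libraries). Each fit has 1 residual degree of freedom, 4.35 and 4.39 with the empirical Bayes prior. Nothing says that the libraries came from separate animals, so p-values measure only the spread between these libraries, which may be technical. Scripts were tested on simulated data.

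FPKM hold no counts. Depth was estimated from values under 0.4 FPKM x kb of genes of 1.5 to 6 kb. In each library between 53.0% and 66.8% of these values lay within 0.1 of a whole multiple of the step, too few to recover whole reads, so no count test was run. Of the 11560 genes 11022 matched a RefSeq entry (GRCm38.p6), which gave coordinates, promoters and sequences.

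The members and gene lists were chosen with earlier results of these data known. Named genes were the 12 highest and 12 lowest differences of the non-tumour pair, kept genes of the immediate early and heat shock lists, up to 5 genes of each other list by size, the 3 genes on either side of each threshold, genes passing a test (up to 8 per direction), genes with opposite sign in both other pairs and the 3 genes of the sort; a gene that falls under this rule may be not reported here. Alternatives were another pseudocount, filter, scaling, threshold and model, and leaving out either other pair.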

Additional observations from a re-analysis of the deposited data

Results flagged for a closer look

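Amd2 and Egr2 had a difference in the non-tumour pair opposite in sign to that of both other pairs, where each exceeded 2-fold. Both were flagged by these values, which the contrast between pairs also compares. Neither the size of that contrast nor its p-values are therefore support for a difference. Amd2 had 3.87 in the non-tumour pair, -3.41 in the normal diet and -4.02 in the tumour pair, a difference between pairs of 7.59 ± 0.38 (SE; limma, adjusted p = 0.0545), and the sum of Amd2 and its near copy Amd1 had 0.46, 0.03 and 0.46. Egr2 had -1.07, 2.89 and 2.82, a difference between pairs of -3.92 ± 0.19 (limma, adjusted p = 0.0545). Neither passed an adjusted p under 0.05. Under median-ratio rescaling both passed, and Amd2 also with a pseudocount of 0.1 FPKM (adjusted p = 0.047).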

How the results depend on the processing

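The 26 genes at least 2-fold higher and 665 lower in the non-tumour pair became 83 higher with a pseudocount of 0.1 FPKM, 13 and 381 when genes had to average 5 FPKM, 304 and 1113 at 1.5-fold, and 4 and 240 at 4-fold. The 48 genes that were 2-fold apart and passed in the same direction in the other 2 pairs (limma) became 142 under median-ratio rescaling, 2 with a pseudocount of 0.1 FPKM, under quantile normalization or with small RNA genes kept, 1 at an average of 5 FPKM, and 0 without the filter, without the trend or without the source term, so these calls depend on the setting. The count of 0 genes whose effect differed between pairs became 2 with a pseudocount of 0.1 FPKM (Amd2 and Egr1), 4 under median-ratio rescaling (Amd2, Egr1, Egr2 and Fos) and 1 with small RNA genes kept (Snora47), and 108 genes lay outside both other pairs by at least 1, with no test. The cause was not tested for any of these. The 26 immediate early genes flat here and higher in both other pairs were 24 at 1.5-fold, 25 with a pseudocount of 0.1 FPKM (24 shared; Arc and Gadd45b lost, Maff gained) and 26 under quantile normalization (25 shared; Gadd45b lost, Nr4a3 gained). Requiring 1 other pair alone gave 35 without normal diet and 29 without the tumour pair. The 54 flat genes of any kind ran from 52 to 66 and the 283 lower in each pair from 190 to 422 over alternatives chosen after seeing the data. No named gene 2-fold apart changed sign under another pseudocount or scaling. Among flat genes near 0, Hspa8 (0.11 and -0.06), Klf4 (-0.02 and 0.08), Ier5 (-0.01 and 0.06) and Hsf2 (-0.01 and 0.16) did under quantile normalization, and Srf and Stip1 (each 0.01 and -0.01) under median-ratio rescaling. Of the 46 immediate early genes, 25 to 28 were above 0 under these settings, and of 25 heat shock genes 19 to 21. No paired analysis by replicate number was possible because the labels give none; liver source, which pairs each warm with a cold library, was a term of both limma fits. Values under about 0.06 FPKM on a transcript of 1 kb are those of 1 fragment or less, and differences at such levels were not detectable.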

Other observations

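Further gene groups are listed for the non-tumour pair, where 0.225% of all kept genes were at least 2-fold higher and 5.75% lower. Beside these shares, a count of 0 or 1 in a short list does not set the list apart. Of 20 genes of the unfolded protein response, 25 cytosolic ribosomal proteins and 25 subunits of oxidative phosphorylation, 0 were 2-fold apart, and their medians were 0.12, 0.00 and -0.05. Cholesterol synthesis genes (19) and integrated stress response targets (13) had 0 as well. Hmox1, haem oxygenase, which macrophages also express, was the 1 of 12 NRF2 targets 2-fold lower, at 18.4 FPKM in HSC_NT_37 and 42.6 FPKM in HSC_NT_6. Ndrg1, a hypoxia-inducible gene, was the 1 of 23 glycolysis and hypoxia genes 2-fold lower, at 8.16 FPKM in HSC_NT_37 and 25.4 FPKM in HSC_NT_6. Cirbp and Rbm3, which cold induces, each had a difference of -0.15. Of 25 interferon-stimulated genes, Rsad2 was 2-fold lower (5.31 FPKM in HSC_NT_37 and 13.3 FPKM in HSC_NT_6) and Mx2 had 0.82 here against 3.21 in the tumour pair.

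Of 8 smooth muscle genes 0 were 2-fold apart, with a median of 0.31 and, with all 9 listed markers, a sum of 1003 FPKM in HSC_NT_37 and 797 FPKM in HSC_NT_6. The 5 listed platelet markers summed to 203 FPKM in HSC_NT_37 and 138 FPKM in HSC_NT_6. S100a8, a neutrophil gene, was listed at 0 in HSC_NT_37 and at 7.01 FPKM in HSC_NT_6, and the red cell gene Hba-a1 was listed at 0 in HSC_NT_37 and at 3.89 FPKM in HSC_NT_6. No B or plasma cell gene of 8 passed the filter, and 3 T and NK cell genes, 2 platelet genes and 1 cholangiocyte gene that did were flat. Of 2 dendritic cell genes Ly6d was listed at 0 in HSC_NT_37 and at 1.55 FPKM in HSC_NT_6. Among 6 portal fibroblast and mesothelial genes, the median was 0.13 and 4 had a difference above 0, among them Mfap4 (1.64, at least 2-fold higher), Fbln1 (0.76) and Wt1 (0.25), while 2 were 2-fold lower. Gpm6a was at 1.64 FPKM in HSC_NT_37 and 12.7 FPKM in HSC_NT_6 and Cd34 at 2.6 and 10.8 FPKM in these libraries. Of 14 circadian clock genes and 6 metallothionein and zinc transport genes, 0 were 2-fold apart.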
